A study of Mus musculus with 24 samples.

Results

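Immediate early genes are transcription factor and stress genes that many cells switch on within minutes of a stimulus, without new protein synthesis. Described here are 10 of them: Fos, Fosb, Jun, Junb, Atf3, Egr1, Egr2, Egr3, Klf6 and Ier3. They were taken by name, as the rows of an Affymetrix mouse array that the platform annotation maps to that gene alone, out of 18193 genes with such a row. They were read by 17 probe sets, and for each gene and tissue the probe set of highest mean signal stood for the gene. The series asks about GPR120, a receptor for long-chain fatty acids that Ffar4 encodes, in mice fed a high-fat diet (HFD) or a normal diet (ND). Epididymal adipose tissue and liver were taken from 3 GPR120 knockout (KO) and 3 wild-type (WT) mice on each diet, so that 12 mice gave 24 arrays in 8 groups of 3. All mice were on a mixed 129/Sv and C57BL/6 background. The labels name each mouse but give no age, fasting state, time of day or time from death to freezing, and do not say whether WT mice were littermates. Values are array signals in intensity units as the authors scaled them, and the 3 values of a group are given in the order of the mouse numbers (427, 428, 429 for KO on HFD, 546, 547, 560 for WT on HFD, 718, 719, 720 for KO on ND and 686, 687, 690 for WT on ND).

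Fos proteins pair with Jun proteins to form AP-1, a dimer that binds TGACTCA-type sites in the promoters of genes for matrix turnover, inflammation and proliferation. Their genes are turned on through MAP kinases, serum response factor and CREB, and the messages are short-lived, so tissue handling and dissection can raise them as well as a signal in the living animal. EGR proteins are zinc finger factors of the same early wave, Atf3 is a stress-induced member of the ATF/CREB family, Klf6 is a Krüppel-like factor, and Ier3 is an early response gene linked to cell survival.

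Promoter sequences are shown for the members that the results below turn on, Fos, Jun, Atf3 and Egr2, because the elements in them are those through which stimuli are known to reach such genes. They are from RefSeq (build GRCm38.p6), read 5′ to 3′ on the strand of the gene, with the matches in capitals. The first 3 are the 100 bases just before the annotated start, at chr12:85473790-85473889 on the plus strand for Fos, chr4:95052223-95052322 on the minus strand for Jun and chr1:191183334-191183433 on the minus strand for Atf3. For Egr2, which has 5 annotated starts, 30 bases at chr10:67537789-67537818 on the plus strand are given.
Fos: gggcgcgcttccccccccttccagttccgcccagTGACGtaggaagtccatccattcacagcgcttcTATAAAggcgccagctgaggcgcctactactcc
Jun: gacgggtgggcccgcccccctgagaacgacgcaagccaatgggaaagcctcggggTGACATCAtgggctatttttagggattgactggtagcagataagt
Atf3: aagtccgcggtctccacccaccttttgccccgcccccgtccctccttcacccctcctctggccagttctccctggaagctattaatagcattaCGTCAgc
Egr2: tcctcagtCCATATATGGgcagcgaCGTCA
The capitals in Fos are TGACG, the core of a cyclic AMP response element (CRE), which starts 66 bases before the start, and the TATA box TATAAA. In Jun they are TGACATCA, the variant AP-1 site 45 bases before the start, in Atf3 the TGACG core on the other strand, and in Egr2 a CArG box, the site of serum response factor, 72 bases before one start, and a TGACG core beside it. RefSeq gave 300-base windows, from 250 bases before to 50 after each start, for 8 of the 10 members, and both strands were searched. A member counts when any of its windows matched, and Egr2 has 5, while the percentages are of single windows, so the 2 are not in like units. The TGACG core was found in windows of 5 members (Fos, Fosb, Junb, Atf3 and Egr2) and in 20.8% of all 32851 windows. TGACATCA was found in Jun and Klf6 and in 3.62% of windows, and the CArG box in Egr2 and in 1.63%. The full CRE TGACGTCA (1.79% of windows), TGACTCA (5.20%) and the EGR site GCGTGGGCG (0.612%) had no match in the member windows, which says only that these letters are not there.

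Array medians ran from 13.5 to 25.8 intensity units after the authors' scaling. As a check of the tissues, the summed signal of 7 adipocyte markers was 12192 to 29629 in adipose arrays, and that of 8 hepatocyte markers 72468 to 110322 in liver arrays. Ffar4 signal was 23.1 to 35.7 in KO and 58.3 to 171 in WT adipose arrays. In liver, where Ffar4 lay below the filter, it was 13.5 to 36.8 in KO and 0.55 to 17.3 in WT arrays, and since no source used here places its probe set relative to the deleted stretch, it is no check of the labels. Genes were tested in a tissue when their mean signal reached that of the median probe set, 19.3 in adipose tissue and 13.0 in liver. In adipose tissue 9 of the 10 members passed, all but Fosb, and in liver 7, all but Fosb, Egr2 and Egr3. Adipose Egr3 passed only through its KO group on HFD (the other groups averaged 13.7), so it had to differ, and adipose counts are also given without it. Differences are log2 ± SE from a limma fit of all genes of a tissue, and a gene is called at a Benjamini-Hochberg adjusted p under 0.05 over all genes tested.

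On HFD most of the tested immediate early genes were higher in mice without GPR120, in both tissues. In adipose tissue 6 of 9 tested members rose in KO against WT mice (Fos, Jun, Junb, Egr2, Egr3 and Atf3) and 0 fell, where 11.1% of all tested genes were called higher and 11.4% lower. Without Egr3 this was 5 of 8 higher. In liver 4 of 7 rose (Fos, Jun, Atf3 and Klf6) and 0 fell, against 3.73% of all genes called higher and 2.98% lower. The KO and WT arrays did not overlap for 7 of 9 members in adipose tissue (6 of 8 without Egr3) and for 4 of 7 in liver, where 38.0% and 29.3% of all genes were so separated. The median log2 difference of the tested members was 1.21 in adipose tissue (0.99 without Egr3) and 1.67 in liver, beside medians of -0.03 for all genes in both. Called in both tissues were Fos, Jun and Atf3. The plots of signals by array show all 10 members, first for adipose tissue and then for liver.

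**Figure D1:**
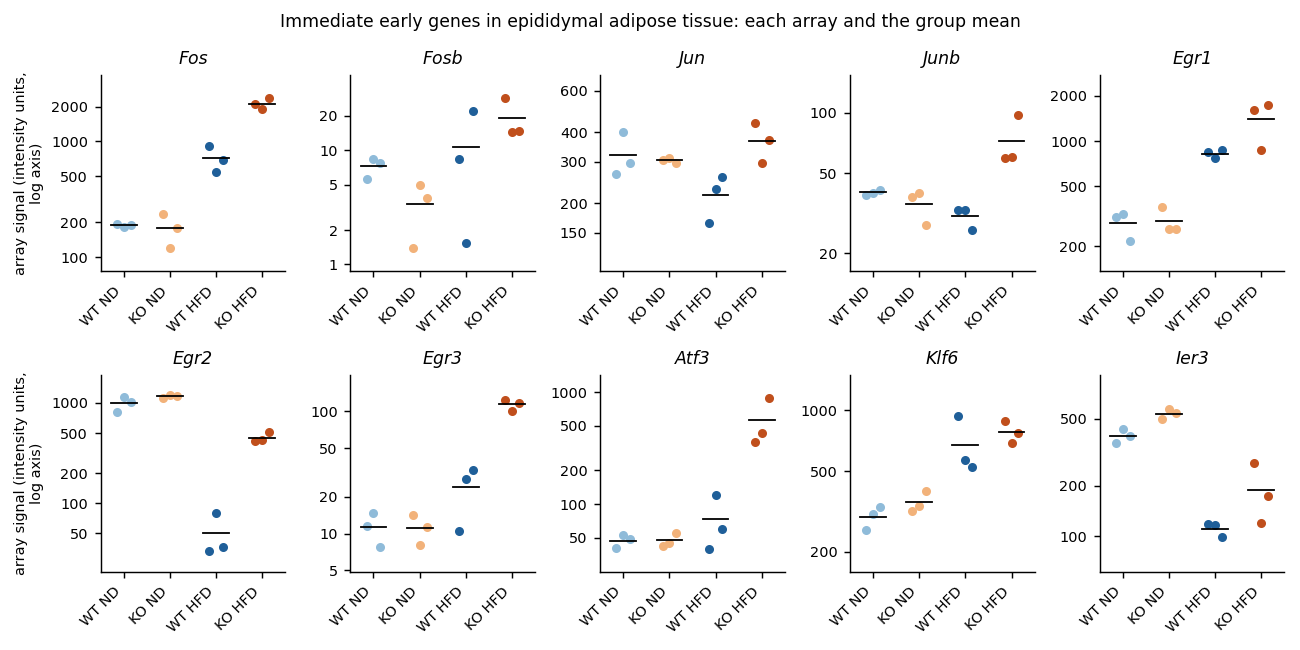
Array signal of the 10 immediate early genes in epididymal adipose tissue, in intensity units on log axes, for WT and KO mice on ND and HFD. Points are single arrays (3 mice a group, left to right in order of mouse number) and lines are group means. Fos reads 1897 to 2363 in KO and 541 to 908 in WT mice on HFD, while Egr2 is highest on ND and lowest in WT mice on HFD.

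**Figure D2:**
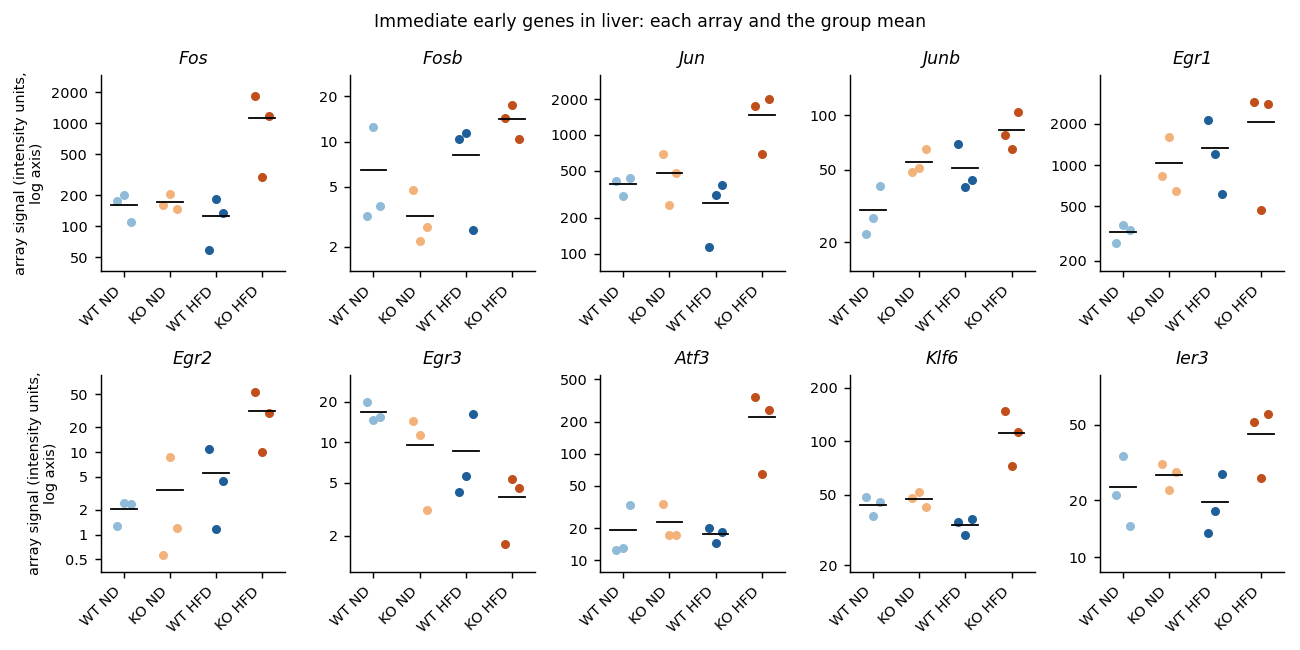
Array signal of the same 10 genes in liver, drawn in the same way. In KO mice on HFD the middle point, mouse 428, lies below the other two for Fos (300), Jun (687), Egr1 (465) and Atf3 (64.1).

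Fos encodes the founding partner of Jun in AP-1. Its adipose signals were 2094, 1897 and 2363 in KO and 908, 541 and 688 in WT mice on HFD. On ND they were 238, 120 and 180 in KO mice and 192, 182 and 187 in WT mice. All KO arrays on HFD stood above all WT arrays on HFD, and these stood above every ND array. The genotype difference on HFD was 1.60 ± 0.23 (3.03-fold, adjusted p = 0.00125). In liver the signals of Fos were 1867, 300 and 1182 in KO against 58.1, 184 and 134 in WT mice on HFD. The other liver arrays read 109 to 203, so that only KO mice on HFD stood apart, with mouse 428 close to the rest. The liver difference was 2.95 ± 0.55 (7.73-fold, adjusted p = 0.00761).

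Fosb, a close relative of Fos, was dim in both tissues and was not tested. Its adipose signals were 28.7, 14.5 and 14.6 in KO against 8.42, 1.55 and 21.9 in WT mice on HFD, with 1.39 to 8.39 on ND. In liver it read 14.4, 17.4 and 10.3 in KO and 10.4, 11.3 and 2.57 in WT mice on HFD. The highest Fosb value of each tissue was that of a KO mouse on HFD, but KO and WT arrays overlapped.

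Jun, the main partner of Fos, was called in both tissues, with a larger estimate in liver. The main comparison between tissues, given below, did not pass for Jun. In adipose tissue it read 439, 296 and 371 in KO and 165, 231 and 258 in WT mice on HFD, beside 295 to 312 in KO and 265 to 402 in WT mice on ND. The difference on HFD was 0.76 ± 0.20 (1.70-fold, adjusted p = 0.0200), and the WT arrays on HFD were the lowest of the 4 groups. This call did not hold without mouse 427, 429 or 546 (adjusted p = 0.0574, 0.0610 and 0.0749) or when the HFD arrays were fitted alone (0.0537). In liver Jun read 1745, 687 and 2015 in KO against 113, 312 and 380 in WT mice on HFD. On ND the liver values were 687, 259 and 474 in KO and 407, 305 and 434 in WT mice, so mouse 428 on HFD was level with the highest ND array. The liver difference was 2.50 ± 0.47 (5.64-fold, adjusted p = 0.00841).

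Junb, another Jun protein, rose in adipose tissue of KO mice on HFD. The signals were 59.6, 60.1 and 97.0 in KO and 32.8, 32.8 and 26.0 in WT mice on HFD, with 27.6 to 40.1 in KO and 39.1 to 41.4 in WT mice on ND. KO mice on HFD were above all other adipose arrays, by 1.21 ± 0.23 over WT mice on HFD (2.32-fold, adjusted p = 0.00454). Liver Junb read 77.4, 65.3 and 104 in KO and 69.3, 40.4 and 44.0 in WT mice on HFD. These overlapped, and the difference of 0.70 (95% interval 0.10 to 1.30) did not pass (adjusted p = 0.149).

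Atf3 encodes a repressor and activator of the ATF/CREB family that cell stress induces. In adipose tissue it read 360, 430 and 892 in KO and 39.9, 120 and 59.7 in WT mice on HFD. On ND the values were 42.6, 45.4 and 54.8 in KO and 40.2, 53.2 and 48.5 in WT mice. Thus 3 groups lay together, apart from WT mouse 547, and the KO mice on HFD stood alone, higher than WT mice by 2.97 ± 0.39 (7.84-fold, adjusted p = 0.000893). The adipose array of mouse 547 also held skeletal muscle transcripts (marker sum 6911, against 224 to 1419 on the other arrays). Of the WT arrays on HFD it had the largest macrophage marker sum too (12609). The part of either in its Atf3 signal was not tested. In liver too the KO mice on HFD were the highest group. Atf3 read 344, 64.1 and 256 in KO and 20.1, 14.4 and 18.2 in WT mice on HFD, with 12.5 to 33.5 on ND. Even mouse 428 was above the highest of the other liver arrays, and the difference was 3.35 ± 0.55 (10.2-fold, adjusted p = 0.00386).

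Among the EGR factors the genotype difference was largest for Egr2. This gene encodes a zinc finger factor known from myelin formation and macrophage and lymphocyte activation. Its adipose signals were 414, 424 and 516 in KO and 33.2, 80.0 and 36.9 in WT mice on HFD. Both ND groups were brighter still, with 1133, 1192 and 1183 in KO and 806, 1157 and 1031 in WT mice. The 4 groups formed 3 steps without overlap (ND, KO on HFD, WT on HFD), and the difference on HFD was 3.29 ± 0.27 (9.75-fold, adjusted p = 0.000154). Its second probe set gave the same order, with 297 to 501 in KO and 31.8 to 64.4 in WT mice on HFD. In liver Egr2 was below the filter. It read 53.7, 10.01 and 29.9 in KO and 11.0, 1.17 and 4.51 in WT mice on HFD, with 0.57 to 8.66 on ND.

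Egr3, a relative of Egr2, read 125, 101 and 118 in KO and 10.6, 28.2 and 33.2 in WT mice on HFD in adipose tissue. On ND all 6 arrays lay between 7.82 and 14.7, under the filter level. KO mice on HFD stood apart from every other array, by 2.41 ± 0.43 over WT mice on HFD (5.32-fold, adjusted p = 0.00297). Since Egr3 passed the filter only through that KO group, a difference was to be found in advance, and this call is no support of its own. The second probe set of Egr3 did not show this: it read 2.51 to 5.73 in KO and 5.03 to 9.91 in WT mice on HFD, far under the filter, and with the mean of both probe sets Egr3 was not tested. In liver both probe sets were dim, and the brighter one ran from 1.73 to 19.9 over all arrays.

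Egr1 encodes a widely studied EGR factor that growth factors induce. In adipose tissue it read 1602, 865 and 1731 in KO and 847, 766 and 866 in WT mice on HFD, beside 217 to 367 on ND. Mouse 428 lay within the WT arrays, and the difference of 0.70 (95% interval 0.14 to 1.26) did not pass (adjusted p = 0.0707). Without that mouse, the lowest KO array, it had to be larger, and at 1.01 it was called (adjusted p = 0.00622). Liver Egr1 varied widely within groups, at 2877, 465 and 2814 in KO and 2157, 1212 and 609 in WT mice on HFD. KO mice on ND read 839, 1614 and 643, and WT mice on ND 267, 363 and 337. The 3 WT arrays on ND were the lowest of the tissue, and the other groups overlapped. The liver difference on HFD was 0.41 with an interval from -0.90 to 1.73 (adjusted p = 0.728), so that these arrays fix neither its sign nor its size.

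Klf6 encodes a zinc finger factor that is induced in injured liver and in macrophages. In liver it read 148, 72.8 and 112 in KO against 35.1, 29.4 and 36.5 in WT mice on HFD, with 37.8 to 51.6 on ND. KO mice on HFD were above all other liver arrays, by 1.67 ± 0.24 over WT mice on HFD (3.18-fold, adjusted p = 0.00145). In adipose tissue both HFD groups were high, with 884, 689 and 771 in KO and 933, 568 and 526 in WT mice, and both ND groups were low, with 256 to 399. The adipose genotype difference on HFD was 0.25 (95% interval -0.20 to 0.70, adjusted p = 0.412), and KO and WT arrays overlapped.

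Ier3 is a stress-inducible gene that dampens cell death in several settings. Its adipose signals were 274, 120 and 173 in KO and 118, 116 and 98.8 in WT mice on HFD, and the groups did not overlap, though mouse 428 was only just above the WT arrays. On ND it was brighter, with 497, 567 and 537 in KO and 357, 435 and 393 in WT mice. The difference on HFD, 0.69 (95% interval 0.18 to 1.21), did not pass (adjusted p = 0.0540), and without mouse 428 it was 0.98 and was called (adjusted p = 0.00537). In liver Ier3 read 51.3, 26.2 and 57.2 in KO and 13.4, 17.4 and 27.6 in WT mice on HFD, with an overlap of 1 KO array. The liver difference of 1.19 (95% interval 0.34 to 2.04) did not pass (adjusted p = 0.0901), and without mouse 428 it was 1.54 (adjusted p = 0.0477).

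On ND none of these differences was found by limma. In adipose tissue 0 of 9 members were called (0.215% of all genes higher, 0.0344% lower). An unadjusted p under 0.05 was found for 1617 of all 11613 genes and for 0 members. The largest adipose difference on ND was that of Ier3, 0.44 (95% interval -0.08 to 0.95), with KO and WT arrays apart. In liver 0 of 7 were called (2.22% of all genes higher, 2.49% lower). An unadjusted p under 0.05 was found there for 2339 of all 11125 genes and, not far from that share, for 2 of 7 members. These were Junb, which read 48.8, 51.4 and 65.1 in KO and 22.1, 27.2 and 40.8 in WT mice, and Egr1. Their differences were 0.91 (95% interval 0.31 to 1.51, adjusted p = 0.0801) and 1.58 (0.26 to 2.89, adjusted p = 0.160), and in both the KO arrays stood above the WT arrays. The share of all genes so separated on ND is not given here, so the separations on ND are description only. Junb was called without WT mouse 690 (adjusted p = 0.0416) and Egr1 when the ND arrays were fitted alone (adjusted p = 0.0194).

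In WT adipose tissue the diet comparison called members in both directions, in counts near the shares of all genes. HFD against ND raised 3 of 9 (27.9% of all genes were called higher): Fos by 1.89 ± 0.23 (adjusted p = 6.05e-05), Egr1 by 1.56 ± 0.25 (adjusted p = 0.000396) and Klf6 by 1.14 ± 0.20 (adjusted p = 0.000733). It lowered 3 of 9 (27.4% of all genes lower). Egr2 fell by 4.42 ± 0.27 (21.4-fold, adjusted p = 8.67e-07), Ier3 fell by 1.83 ± 0.23 (adjusted p = 7.58e-05) and Jun fell by 0.56 ± 0.20 (adjusted p = 0.0343). The Jun call did not hold without WT mouse 546, 687 or 690 (adjusted p = 0.138, 0.130 and 0.0547), with the HFD and ND arrays of WT mice fitted alone (0.0664) or with the mean of its probe sets (0.128). For Atf3 and Junb the differences were 0.49 and -0.40, and neither passed. Egr3, whose ND group lay under the filter, was at least 1.11-fold higher on HFD and did not pass (adjusted p = 0.0773), although it did without mouse 546 (adjusted p = 0.00540) and after quantile normalization (adjusted p = 0.0188).

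In KO adipose tissue HFD against ND raised 6 of 9 members (22.1% of all genes were called higher) and lowered 2 (26.6%), or 5 and 2 of 8 without Egr3. Fos rose by 3.61 ± 0.23 (12.2-fold, adjusted p = 1.87e-06), Atf3 by 3.45 ± 0.39 (10.9-fold, adjusted p = 5.16e-05) and Egr1 by 2.20 ± 0.25 (4.58-fold, adjusted p = 5.56e-05). Egr3 rose at least 5.91-fold (adjusted p = 9.76e-05), a bound set by the filter level because its ND group lay under it. Klf6 rose by 1.15 ± 0.20 and Junb by 1.01 ± 0.23. Egr2 fell by 1.38 ± 0.27 (2.60-fold, adjusted p = 0.00178) and Ier3 fell by 1.58 ± 0.23 (2.98-fold, adjusted p = 0.000277). Jun differed by 0.26 and did not pass. With the mean of its probe sets it did (0.55, adjusted p = 0.0299).

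All adipose ND arrays held epididymal transcripts, and these arrays enter the diet comparisons, the genotype comparison on ND and the interaction. The summed signal of 7 epididymis markers was 28525 to 45490 on ND and 19.3 to 85.8 on HFD, and all 7 were called lower on HFD in each genotype. Markers of mesothelium and epithelium summed to 5809 to 7915 on ND, to 126 to 542 on HFD in 5 mice and to 2379 in mouse 427. Sperm transcripts were high in WT mice 686 (17630) and 690 (13152) on ND. Of 13 macrophage markers 10 rose on HFD in WT and 13 in KO mice. The part of these cells in the Egr2, Ier3 and other diet differences was not tested, nor was their part in the ND genotype differences and the interactions.

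In liver the members called by diet were called in KO mice, and the interaction below tests the difference from WT mice. WT mice had 0 of 7 members called between HFD and ND (6.47% of all genes higher, 6.04% lower). By limma, an unadjusted p under 0.05 was found for 3053 of all 11125 genes and, near that share, for 2 of 7 members. These were Egr1 (1.87, 95% interval 0.56 to 3.18, adjusted p = 0.0618) and Junb (0.77, 0.18 to 1.37, adjusted p = 0.0860). Egr1 was called without mouse 560 (adjusted p = 0.0306) and with the WT arrays fitted alone (0.0273), and Junb without mouse 690 (0.0405). In KO mice 4 of 7 rose on HFD (9.16% of all genes higher, 7.37% lower). Atf3 rose by 3.05 ± 0.55 (8.30-fold, adjusted p = 0.00298), Fos by 2.37 ± 0.55 (5.18-fold, adjusted p = 0.0113), Jun by 1.61 ± 0.47 (3.06-fold, adjusted p = 0.0343) and Klf6 by 1.17 ± 0.24 (2.25-fold, adjusted p = 0.00566). The Jun call did not hold without KO mouse 427, 429, 719 or 720 (adjusted p = 0.111, 0.132, 0.131 and 0.0769) or without the filter (0.0576), and that of Klf6 did not with the mean of its probe sets (0.0781). Egr1 passed without mouse 428 (1.58, adjusted p = 0.0373).

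**Figure D3:**
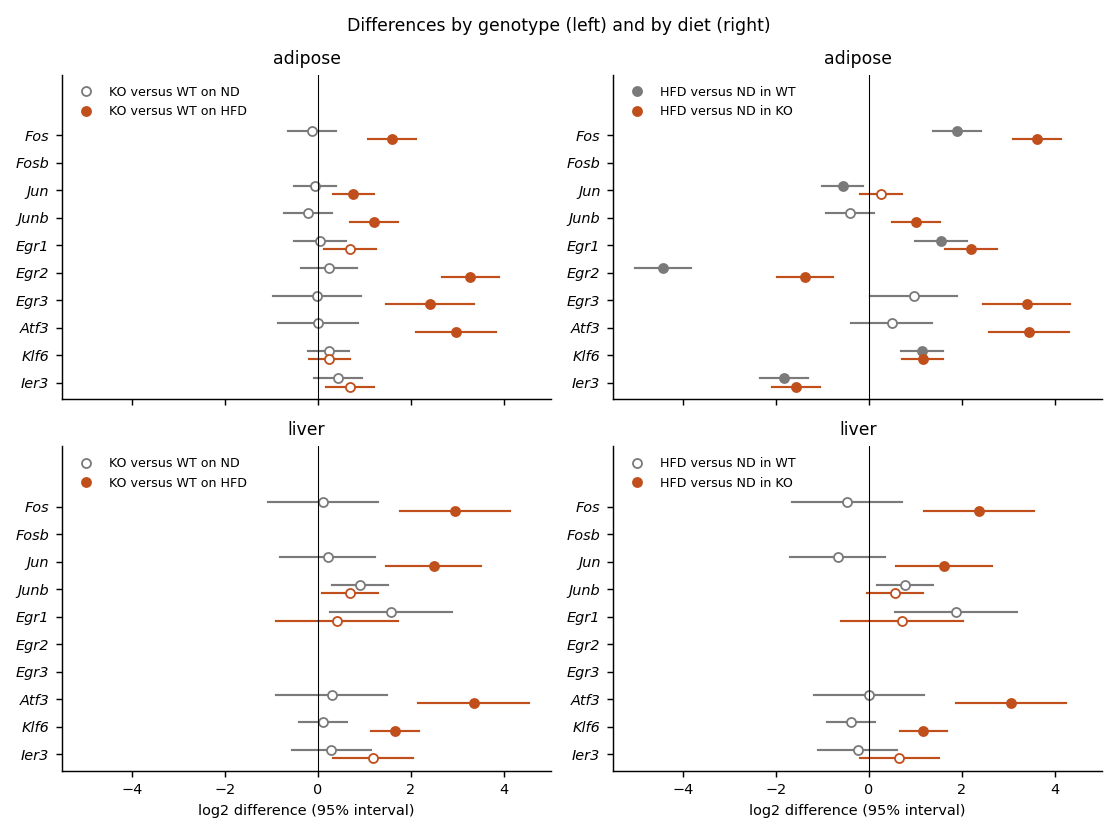
Log2 differences of the tested members in adipose tissue (top) and liver (bottom), by genotype (left: KO minus WT on ND and on HFD) and by diet (right: HFD minus ND in WT and in KO). Points are the limma estimates, bars their 95% intervals, and filled points are called at an adjusted p under 0.05. By genotype, all filled points belong to HFD and lie to the right of 0.

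Whether the genotype difference depended on diet was tested by an interaction. In adipose tissue 5 of 9 members were called, all with a larger KO minus WT difference on HFD than on ND (3.76% of all genes were called in this direction and 7.20% in the other). They were Egr2 (3.04 ± 0.39, adjusted p = 0.00330), Atf3 (2.96 ± 0.56, adjusted p = 0.0105), Egr3 (2.43 ± 0.61, adjusted p = 0.0284), Fos (1.72 ± 0.33, adjusted p = 0.0117) and Junb (1.42 ± 0.33, adjusted p = 0.0226). The ND side of these values comes from arrays with epididymal transcripts, on which Egr2 was brightest. It is thus not of adipose tissue alone, and the part of those transcripts was not tested. The count was 3 without mouse 720, and without mice 686 and 690, the pair with sperm transcripts, it was 1. That fit leaves 1 WT array on ND, assumed to vary like the other groups. Its estimates for the 4 members not called were 1.68 for Fos, 1.41 for Junb, 2.85 for Egr3 and 3.14 for Atf3 (adjusted p = 0.0555 to 0.111). Without mouse 428 Egr1 was called too (0.96, adjusted p = 0.0421). For Egr3 both ND groups lay under the filter, so its estimate is no measured size, and 4 of 8 members were called without it. Egr3 did not pass without mouse 429, 719, 720 or 686 (adjusted p = 0.0622, 0.0682, 0.0597 and 0.0548) or after quantile normalization (0.0532), and Junb did not without 720 or 560 (0.0560 and 0.0546). In liver 1 of 7 was called, Klf6 at 1.55 ± 0.34 (adjusted p = 0.0492, against 0.620% of all genes higher and 0.369% lower), a call that was lost in 11 of 12 fits that each left out 1 array. Atf3 (3.05, adjusted p = 0.0900), Fos (2.84, adjusted p = 0.107) and Jun (2.28, adjusted p = 0.132) had larger estimates in liver and did not pass, and Atf3 and Fos did without mouse 428 (adjusted p = 0.0116 and 0.0100).

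The genotype difference on HFD was also compared between tissues, for the 7 members tested in both. Klf6 differed more in liver than in adipose tissue, by -1.42 ± 0.31 as adipose minus liver (adjusted p = 0.00521, with 5.34% of all genes called higher and 7.43% lower). For Jun the estimate was -1.73 (95% interval -2.93 to -0.54, adjusted p = 0.0518). With the mouse as a replicate block, since each animal gave both tissues, Jun was called too (adjusted p = 0.0393). Fos (-1.35), Atf3 (-0.38), Ier3 (-0.50), Egr1 (0.28) and Junb (0.51) did not pass. Without mouse 428, Fos (-2.04, adjusted p = 0.0178) and Jun (-2.07, adjusted p = 0.0223) were called beside Klf6.

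Single mice differed in how high these genes were. KO mouse 428 had the lowest signal of its group in 7 of 7 tested members in liver and in 6 of 9 in adipose tissue. The adipose count was not particular to it, since WT mouse 686 on ND was also lowest in 6 of 9. How often an array was the lowest over all genes was not counted. The liver Fos of mouse 428, 300, was far under that of mouse 429, 1182, and its liver Egr1, 465, was below all WT arrays on HFD. In adipose tissue the same mouse was within the range of its group mates for Egr2 and Atf3, and near the WT arrays for Egr1, Klf6 and Ier3. Where mouse 428 was lowest, leaving it out had to raise the KO mean, so calls gained without it are no added support.

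**Figure D4:**
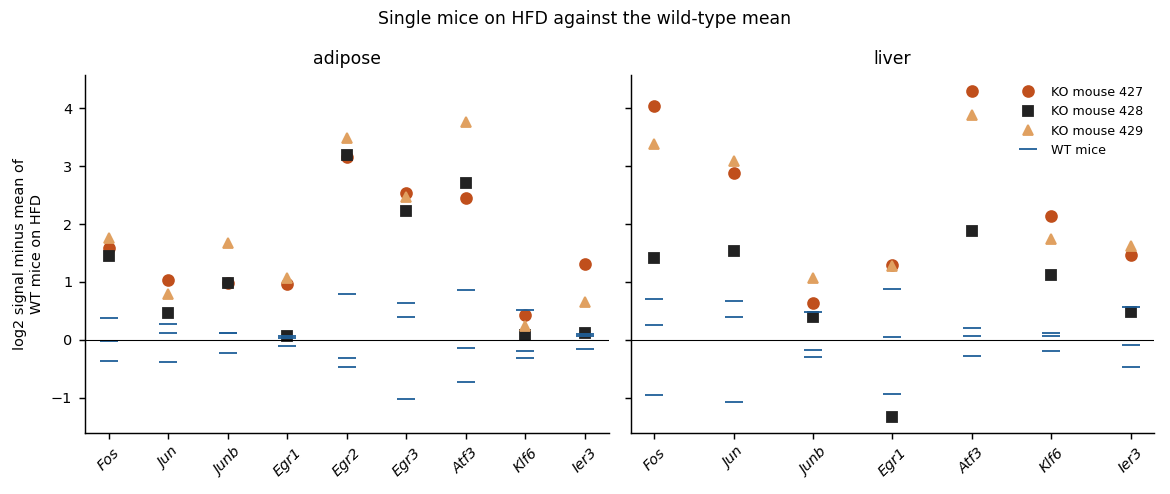
Log2 signal of each KO mouse on HFD minus the mean of WT mice on HFD, for the tested members in adipose tissue and liver. Circles, squares and triangles are KO mice 427, 428 and 429, and dashes are the 3 WT mice. In liver the square of mouse 428 is the lowest KO point for all 7 members.

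Whether a mouse with high signal in 1 tissue also had high signal in the other was tested over the 12 mice, on deviations from group means, by an exact permutation test over all 1296 orders within groups (two-sided, 10 members). No member passed. Pearson's r was highest for Egr1 (0.55, p = 0.221, Spearman's rho 0.39, p = 0.346) and Jun (0.53, p = 0.150, rho 0.48, p = 0.202), and lowest for Fosb, which lay under the filter in both tissues (-0.55, p = 0.254, rho -0.41, p = 0.265), with adjusted p = 0.601 for Pearson's r and 0.883 for rho in all 3. Without the 2 mice farthest from the median, r was 0.20 for Egr1, 0.57 for Jun and -0.12 for Fosb. Liver Egr2 and Egr3 were under the filter too, and Egr3 was read by another probe set in each tissue. These 12 points are of the same mice in both tissues and of arrays that were scaled alike.

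How the members moved together within groups was described in each tissue. Over the 12 arrays of a tissue, deviations from group means correlated between members at a median r of 0.08 in adipose tissue (22 of 36 pairs above 0, -0.70 to 0.86) and 0.47 in liver (18 of 21 above 0, -0.23 to 0.76). The highest adipose pair was Egr2 with Atf3, and the lowest Egr3 with Klf6. In liver Atf3 with Klf6 was highest. Each value is a description over arrays that share the same groups and scaling.

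The genes most like Fos, Egr1 and Atf3 were found by Pearson's r of log2 signals over the 12 arrays of a tissue, groups included. For adipose Fos they were Zfp36 (r = 0.99), which encodes a protein that destabilizes early messages, Gpr34 (0.98), a receptor of macrophages and microglia, and Myo5a (0.97). For adipose Egr1 they were Ppp1r12c, Myo5a and Arhgef2 (each 0.97). For adipose Atf3 they were Glipr1 (0.995), Iqgap1 (0.99), a scaffold of the cytoskeleton, and Cd300c2 (0.99). In liver Fos was most like Col1a2 (0.95), a collagen gene, Rcan1 (0.93), a calcineurin regulator, and Cd68 (0.92), a macrophage lysosome gene. Liver Egr1 was most like Sipa1l1 (0.91), Afg1l (0.89) and Thoc5 (0.89), and liver Atf3 most like Vps29 (0.95), Rer1 (0.94) and Vcpkmt (0.94). Among the members themselves, adipose Fos followed Egr1 (0.96), Klf6 (0.90) and Egr3 (0.90) and ran against Ier3 (-0.74) and Egr2 (-0.49). With group means removed, r with Fos was 0.48 for Egr1, 0.37 for Klf6, -0.08 for Egr3, -0.02 for Ier3 and -0.48 for Egr2.

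Other genes of the early response were counted in lists, for adipose tissue of KO against WT mice on HFD first. There 11.1% of all genes were called higher and 11.4% lower. Of 27 other immediate early genes tested, 6 rose and 1 fell, with a median log2 difference of 0.43. Plk2, a stress-induced kinase, rose by 1.52 ± 0.25 (adjusted p = 0.00199), Bhlhe40, a clock-linked repressor, by 1.34 ± 0.22 (adjusted p = 0.00220), and Gadd45b, a growth arrest gene, by 1.33 ± 0.22 (adjusted p = 0.00227). Of 14 feedback inhibitors 5 rose and 0 fell (median 0.33). Dusp5, a phosphatase of ERK kinases, rose at least 4.69-fold (adjusted p = 0.00691), a bound because its WT group averaged under the filter, Tnfaip3, a brake on NF-kappaB, by 0.77 ± 0.14 (adjusted p = 0.00287), and Zfp36l2 by 0.70 ± 0.13 (adjusted p = 0.00403). Like Egr2, Dusp5 was lowest in WT mice on HFD, but its KO arrays on HFD overlapped those on ND: it read 57.3 to 315 in KO and 4.48 to 33.1 in WT mice on HFD, and 147 to 297 on ND.

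The AP-1 partners, 15 tested, were split, with 2 higher and 2 lower (median 0.31). Both counts were near the shares of all genes (11.1% higher, 11.4% lower). Jund, the third Jun gene, rose by 0.75 ± 0.23 (adjusted p = 0.0346), Ddit3, a stress factor, by 0.48 ± 0.14 (adjusted p = 0.0342), and Atf2 fell by 0.51 ± 0.13 (adjusted p = 0.0145). Of 3 further EGR family genes and corepressors, Nab2, a corepressor that EGR factors induce, rose by 0.84 ± 0.23 (adjusted p = 0.0232). Of 10 other KLF genes 0 rose and 4 fell (median -0.27), led by Klf15, a glucocorticoid-responsive factor, which fell by 1.22 ± 0.26 (adjusted p = 0.00809). Of 5 serum response factor genes and cofactors 1 rose (Mrtfa, 1.01 ± 0.22, adjusted p = 0.00815) and 1 fell (Elk4, -0.59 ± 0.18, adjusted p = 0.0347). Of 11 upstream kinases 1 rose (Map2k1, 0.57 ± 0.14, adjusted p = 0.0129). Of 8 heat shock genes, listed because handling can induce them, 1 rose (Bag3, 0.58 ± 0.11, adjusted p = 0.00331) and 0 fell. For the kinases and the heat shock genes, the counts called higher were near the share of all genes, 11.1%.

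Of 14 genes widely described as AP-1 or EGR targets, 10 rose and 1 fell in that comparison (11.1% of all genes higher, 11.4% lower). The median of these targets was 1.33. Plau, the urokinase gene, rose 4.01-fold (adjusted p = 0.000243), from 61.1 to 87.1 in WT to 228 to 388 in KO mice on HFD. Timp1, an inhibitor of matrix proteases, rose by 3.60 ± 0.50 (adjusted p = 0.00103), from 30.8 to 131 to 363 to 1081. Vegfa, a growth factor of blood vessels, fell by 2.11 ± 0.28 (adjusted p = 0.000944).

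The same lists were counted in liver of KO against WT mice on HFD, where 3.73% of all genes were called higher and 2.98% lower. By limma, 2596 of all 11125 genes had an unadjusted p under 0.05 there. Of 25 other immediate early genes 2 rose and 0 fell (median 0.62): Btg2, an antiproliferative gene, by 2.41 ± 0.44 (adjusted p = 0.00708) and Csrnp1, also stress-induced, 2.82-fold (adjusted p = 0.0148). Of 14 feedback inhibitors 3 rose and 0 fell (median 0.37), among them Dusp1, a MAP kinase phosphatase, by 2.27 ± 0.34 (adjusted p = 0.00193) and Zfp36 by 1.28 ± 0.22 (adjusted p = 0.00505). By limma 0 of 8 AP-1 or EGR targets were called (median 0.33, with 1 at an unadjusted p under 0.05) and 0 of 16 AP-1 partners (3 at an unadjusted p under 0.05). The KLF genes (0 of 9), serum response factor genes (0 of 5) and EGR family genes (0 of 2) had 1, 1 and 0 at an unadjusted p under 0.05. Of 11 upstream kinases 1 fell (Mapk14, -0.43 ± 0.11, adjusted p = 0.0358), and of 8 heat shock genes 1 fell (Hsph1, -1.10 ± 0.26, adjusted p = 0.0264). On ND the lists held 1 call in adipose tissue (Elk3, 0.69 ± 0.11, adjusted p = 0.0313) and 0 in liver by limma. In liver on ND the AP-1 partners had 6 of 16 genes at an unadjusted p under 0.05 and the other lists 0 to 2 each. Such a p was found for 2339 of all 11125 genes.

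Markers of other cell types also differed between the groups, not all with the same pattern. In bulk tissue fewer cells of a type and less RNA per cell cannot be told apart. In adipose tissue the summed signal of 13 macrophage markers was 18597 to 28246 in KO and 7895 to 12609 in WT mice on HFD, and 2953 to 5458 on ND. Of these markers 12 rose in KO against WT mice on HFD, 7 passed the interaction test, and no marker was at 0 on any array. The 5 neutrophil markers, of which 2 were tested and 1 rose, summed to 608 to 1481 in KO and 161 to 364 in WT mice on HFD. On ND they summed to 301 to 345 in KO and 185 to 1039 in WT mice. All 7 endothelial markers tested fell in KO against WT mice on HFD, and all 7 rose on HFD in WT mice. The 8 on the array summed to 1247 to 1837 in KO and 3691 to 3901 in WT mice on HFD. Their ND sums were 1254 to 1322 in KO and 759 to 1096 in WT mice. Between KO and WT mice on HFD, 5 of 6 fibroblast markers rose, with sums of 16352 to 22415 in KO and 12755 to 14153 in WT mice, and 3 of 7 adipocyte markers fell. In liver the 13 macrophage markers summed to 5599 to 6532 in KO and 3820 to 4746 in WT mice on HFD, with 3 of 12 tested called higher. The 7 adipocyte markers in liver summed to 1207 to 1605 in KO and 367 to 481 in WT mice on HFD, with 4 of 5 tested called higher, and hepatocyte markers to 72468 to 84203 against 86039 to 97023. KO mouse 428, whose liver members were the lowest of its group, had 6283 in liver macrophage markers, between 6532 in mouse 427 and 5599 in mouse 429. The log2 ratio of the 3′ to the 5′ probe set of Actb, which rises with RNA breakdown, was 0.62 to 0.80 in KO and 1.13 to 1.68 in WT adipose tissue on HFD, and 1.69 to 1.71 in KO and 1.99 to 2.09 in WT liver on HFD. All liver arrays on ND read 1.11 to 1.34, so the Actb ratio also separated the diets in liver, without overlap. The same ratio of Gapdh separated the diets in both tissues. In adipose tissue it was -0.48 to -0.34 on ND and -0.09 to 0.21 on HFD. In liver it was -0.40 to -0.27 on ND and -0.11 to 0.06 on HFD. The part of these cells and of RNA quality in the member differences was not tested.

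**Figure D5:**
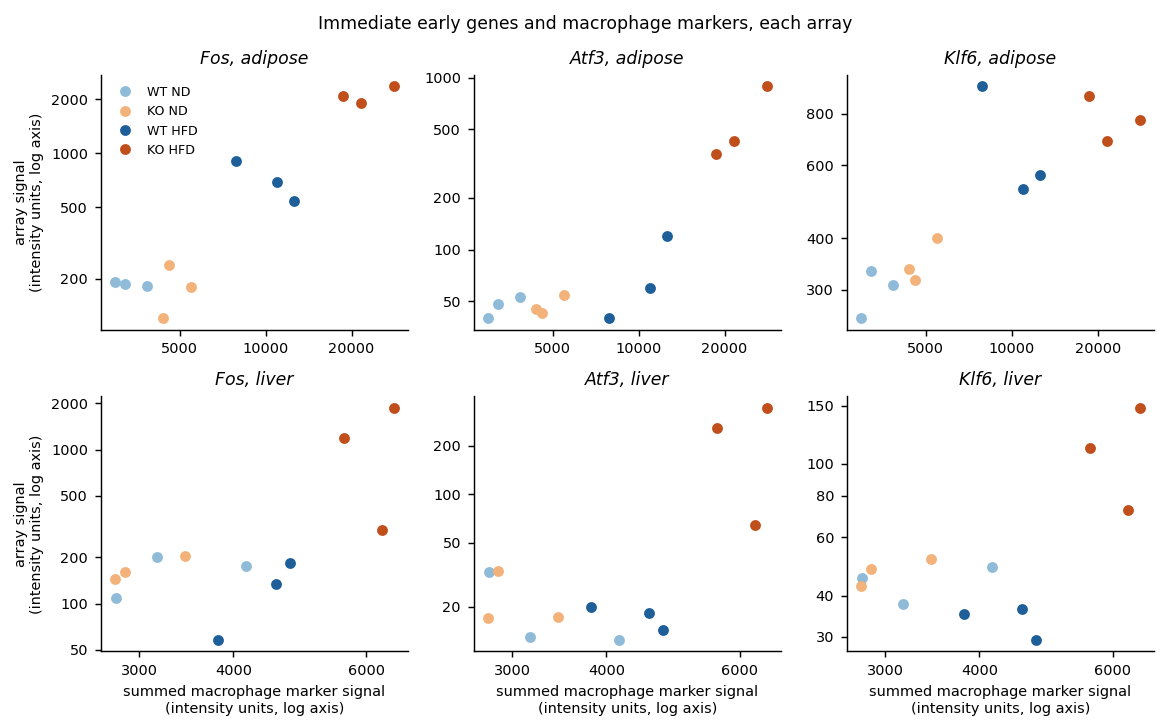
Signal of Fos, Atf3 and Klf6 on each array against the summed signal of the 13 macrophage markers (adipose tissue, top, and liver, bottom), both in intensity units on log axes, coloured by group. In adipose tissue KO mice on HFD lie at the upper right, and Atf3 in WT mice on HFD is highest in mouse 547 (120), which has the largest marker sum of its group (12609).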

How the data were processed

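The 24 arrays each held RNA of 1 tissue of 1 mouse. The authors deposited a table of linear signal intensities, made with MAS5 per the submitters' processing notes. The software version and other steps are not given in the sources used here. The trimmed mean (2% off each end) computed from each column was 100.03 to 100.05, and no further scaling was applied. Of 45101 probe sets 64 controls were left out. The platform annotation, which can be old, gave 1 gene to 34945, several to 932 and none to 9160.

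Within a tissue, signals below the 10th percentile (adipose tissue 1.08, liver 1.10) were set to that floor before log2. Genes with a mean at or above the median probe set's were tested, 11613 for adipose tissue, 11125 for liver and 10057 across tissues. limma 3.58.1 (R 4.3.3) fitted 1 mean per group with trend-based shrinkage, leaving 8 residual degrees of freedom a tissue, and all adjusted p-values are Benjamini-Hochberg values from these fits. The procedure was tested on simulated data. Precision is limited by the 3 arrays a group. Groups and mouse numbers came from the labels. Because each animal supplied a pair of tissues, mouse was also fitted as a replicate block in the comparison across tissues (consensus correlation 0.0643). A fold against a group averaging under the filter is given as at least the ratio to the filter level.

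Members, lists, tests and alternatives were chosen with earlier results of these data known. Named genes were the members, up to 3 of smallest p per list in adipose KO against WT mice on HFD and up to 2 elsewhere, and the 3 genes most correlated with Fos, Egr1 and Atf3. Dusp5 was described further after its values were seen. Listed genes without a probe set of their own were not analysed here. The alternatives tried were other probe set choices, quantile normalization, leaving out the floor, the filter or single arrays, and fitting only the groups compared. The count of table columns left unused because they belong to no sample was 0.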

Additional observations from a re-analysis of the deposited data

Results flagged for a closer look

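The KO minus WT difference depended on diet for 6 values by limma's interaction test. In adipose tissue it was larger on HFD than on ND for Egr2 (by 3.04 on the log2 scale), Atf3 (2.96), Egr3 (2.43, with both ND groups under the filter), Fos (1.72) and Junb (1.42). The adipose ND arrays held epididymal transcripts, whose part in these values was not tested. In liver it was larger on HFD for Klf6 (1.55).

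The KO minus WT difference on HFD differed between tissues for Klf6, at -1.42 as adipose minus liver.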

How the results depend on the processing

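Of 152 counts of called members under an alternative, 128 stayed within 1.5 times the reported count. Of 480 single values of called members, 439 stayed called, 41 missed the threshold and 0 changed sign. The adipose interaction count of 5 ranged from 3 to 6 without single arrays and was 1 without mice 686 and 690, which leaves 1 WT array on ND, assumed to vary like the other groups, while the estimates of the 4 members lost were 1.41 to 3.14. The liver interaction count of 1 was 0 after quantile normalization, without the filter and with the mean of probe sets, and ranged from 0 to 3 without single arrays. The liver counts of 0 for genotype on ND and for diet in WT mice were each 1 with only the 2 groups fitted and ranged from 0 to 1 without single arrays. The causes were not tested.

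With the mouse as a replicate block, 2 members in place of 1 were called in the comparison across tissues, and without single mice 1 to 3.

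Values that had not passed changed sign in some fits. After quantile normalization adipose Egr3 on ND was 0.22 and liver Atf3 by diet in WT mice 0.085, and with the mean of probe sets the adipose Klf6 interaction was -0.042. Without mice 427 and 547 the adipose interactions of Klf6 and Ier3 were -0.18 and -0.017 and Atf3 across tissues 0.92. With that single WT array on ND, adipose Egr1 and Atf3 on ND were -0.16 and -0.17. Without single arrays the adipose interaction ran from -0.14 to 0.27 for Klf6 and from -0.052 to 0.54 for Ier3. On ND in adipose tissue Fos ran from -0.35 to 0.14, Jun from -0.18 to 0.12, Egr1 from -0.13 to 0.16, Egr3 from -0.27 to 0.20 and Atf3 from -0.10 to 0.10. Liver Egr1 on HFD ran from -0.055 to 1.28 and the liver Junb interaction from -0.45 to 0.029. On ND in liver Fos ran from -0.15 to 0.28, Jun from -0.11 to 0.59, Atf3 from -0.019 to 0.76 and Ier3 from -0.0025 to 0.61. For diet in WT liver Fos ran from -0.82 to 0.0067, Atf3 from -0.24 to 0.46 and Ier3 from -0.54 to 0.079. Across tissues Egr1 ran from -0.27 to 0.79 and Atf3 from -0.99 to 0.35. Signals near or under the filter (Fosb, and Egr2 and Egr3 in liver) limit what the arrays can show.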
